A study of Mus musculus with 6 samples.

Results

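The niche of group 2 innate lymphoid cells (ILC2) in the lung was followed through 10 secreted factors, chosen by their gene symbols from the 52636 genes of the count table. They were the alarmins Il33 and Tslp, the chemokines Ccl11, Ccl7, Ccl2, Ccl8, Cxcl12 and Ccl19, and the growth factors Csf1 and Kitl. Each symbol was matched to 1 Ensembl gene on a chromosome. Ccl19 also named a copy on an unplaced scaffold, which had 0 counts in all 6 libraries and was left aside. The libraries came from KLRG1-positive cells (3 libraries; the labels give the cell type as ILC2, and their protocols call this sort KLRG1-high) and from KLRG1-negative cells (3 libraries; cell type ILC). Both sorts were lineage-negative and CD90-positive cells of the lung of wild-type C57BL/6 mice with the IL-4-4get GFP reporter, which places a green fluorescent protein at the Il4 gene. All mice of both groups received interleukin-33 itself, as 500 ng injected into the peritoneum for 4 days, and were killed on day 5, so no library comes from untreated lung. The labels do not say whether the libraries of a group came from separate mice, and p-values therefore measure only the spread between these libraries, which may be technical.

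ILC2 are tissue lymphocytes that respond less to antigen than to signals from their surroundings. Fibroblasts, epithelium and endothelium release alarmins such as interleukin-33 and TSLP when stressed, and ILC2 read them through ST2 and the TSLP receptor. Fibroblasts around airways and vessels are known as a source of interleukin-33 and of chemokines that draw eosinophils and monocytes into the same sites. CD90, which was used in the sort, is found on ILCs and T cells and also on many fibroblasts.

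The libraries held 17323004 to 23421426 assigned counts in KLRG1-positive and 17898268 to 23946073 in KLRG1-negative cells. Klrg1, the basis of the sort, ranged from 1327 to 1786 CPM (a count scaled to library size with TMM factors) in the KLRG1-positive and from 13.1 to 193 CPM in the KLRG1-negative libraries. The 12 ILC2 markers together made up 7478 to 9516 CPM among KLRG1-positive and 1627 to 4133 CPM in KLRG1-negative libraries. The 18 fibroblast markers together made up 199 to 291 CPM in KLRG1-positive libraries and 5260 to 12760 CPM in KLRG1-negative libraries. CPM is not scaled for gene length, so the sums of the fibroblast and ILC2 lists do not rank these cells against each other. Defining markers of ILC2 and of fibroblasts were thus both present in the libraries labelled KLRG1-negative ILC. Libraries numbered 1 stood apart in both groups through the sum of the epithelial markers. It was 551 CPM in KLRG1-positive library 1 against 15.8 and 15.9 CPM in the other KLRG1-positive libraries. In KLRG1-negative library 1 it was 619.8 CPM against 117 and 114 CPM in the other KLRG1-negative libraries. Most of both high sums came from the surfactant genes Sftpc and Sftpa1. Epcam and Krt18 of the same list were lowest in the libraries numbered 1 of both groups.

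Ccl11 was the 1 factor that passed the test across all genes and was lower in KLRG1-positive cells. Il33, Cxcl12, Ccl7, Ccl2 and Ccl8 also lay lower in every KLRG1-positive than in any KLRG1-negative library, with adjusted p between 0.103 and 0.197, so they did not pass. Csf1 and Kitl were present in both groups, with overlapping values. Tslp and Ccl19 had 0 to 31 counts per library and did not pass the filter on low counts. In all, 0 factors were called higher and 1 was called lower (edgeR quasi-likelihood, adjusted p under 0.05), where 0.125% of the 15197 tested genes were called higher and 1.21% lower; at an unadjusted p under 0.05, 0 were higher and 6 lower (4.19% and 11.5% of genes), and DESeq2 called 0 higher and 6 lower, against 2.28% and 9.06% of genes. With the replicate number as a block, edgeR called 0 factors, where 0 genes were higher and 0.349% of genes were lower. The 3 libraries of KLRG1-positive cells lay below all 3 of KLRG1-negative cells for 7 of the 10 factors, Ccl19 included, and for 15.2% of tested genes. Ccl19 was not among the tested genes, and its separation rested on 1 count in KLRG1-positive library 3 against 2 counts in KLRG1-negative library 1. The reverse order held for 0 factors and for 9.46% of genes. The median log2 fold change of the 8 tested factors was -5.11, beside -0.05 over all tested genes; the filter admitted most of them through their KLRG1-negative values alone, so this median is a description. In these bulk libraries fewer cells of a type and less RNA per cell cannot be told apart.

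**Figure D1:**
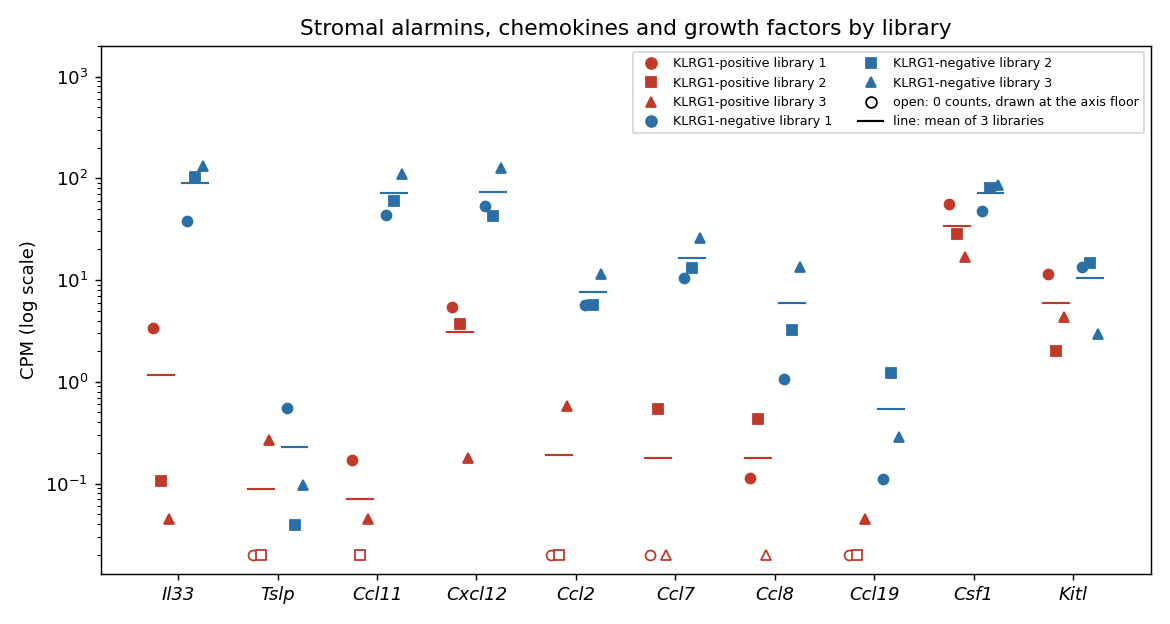
CPM of the 10 niche factors on a log axis, with 1 point per library, KLRG1-positive in red on the left and KLRG1-negative in blue on the right of each gene, and lines at the means. Open points had 0 counts and are drawn at the axis floor. The red points lie below all blue points except in Tslp, Csf1 and Kitl, which overlap. In Ccl19 the nearest points of the groups are 1 count and 2 counts.

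Il33 encodes interleukin-33, the nuclear alarmin that was also the injected agent. It stood at 3.38, 0.107 and 0.0444 CPM in KLRG1-positive libraries 1, 2 and 3, against 38.1, 103 and 131 CPM in KLRG1-negative libraries 1, 2 and 3 (ENSMUSG00000024810, GRCm38 chromosome 19, 29925114 to 29960718, plus strand). The groups did not overlap. KLRG1-positive library 1 held 60 of the 63 Il33 counts in its group, and it is also the KLRG1-positive library with the high sum of epithelial markers. The same library held all KLRG1-positive counts of the fibroblast markers Inmt (234), Pdgfra (61) and Loxl1 (9), which were named after their values were seen. Of the other fibroblast markers, some were highest there, such as Col3a1 (197, 112 and 42 counts in KLRG1-positive libraries 1, 2 and 3). Some were not, such as Dcn (119, 139 and 38 counts). The whole fibroblast list summed to 287, 291 and 199 CPM in these libraries. Without Npnt and Fn1, which were also named after their values were seen, it summed to 67.6, 31.5 and 19.9 CPM. The part of either cell type in the Il33 value was not tested. The fold change on the log2 scale was -6.28 ± 1.58 (SE, n = 3 per group; edgeR adjusted p = 0.115). Without KLRG1-positive library 1 it was -10.15 with an adjusted p of 0.0236, and Il33 then passed. Without both libraries numbered 1 it was -10.52 (adjusted p = 0.016). Of the 9 fits with libraries left out, Il33 passed only in these 2. The highest edgeR adjusted p among the 9 was 0.428. Over all 17 alternative settings Il33 passed in 4. The pooled level was 88.0-fold lower in KLRG1-positive cells (ratio of KLRG1-negative to KLRG1-positive counts per scaled library size, with a counting interval of 68.7 to 115 that covers counting error only).

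RefSeq places the start of Il33 at 2 sites on GRCm38.p6, and the 250 bases before each are shown, because Il33 is the alarmin with the large difference. Capitals mark matches, on either strand, to a TATA box (TATAAA) or to a STAT6 motif (TTC and GAA with any 4 bases between them). The upstream site spans chr19:29924863-29925112 and the downstream site chr19:29945540-29945789, both on the plus strand.
Il33 upstream start: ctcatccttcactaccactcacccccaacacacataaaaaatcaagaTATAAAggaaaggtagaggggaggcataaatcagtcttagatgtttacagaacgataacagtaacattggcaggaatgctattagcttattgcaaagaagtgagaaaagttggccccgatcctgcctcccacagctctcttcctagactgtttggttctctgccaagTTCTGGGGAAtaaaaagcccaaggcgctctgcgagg
Il33 downstream start: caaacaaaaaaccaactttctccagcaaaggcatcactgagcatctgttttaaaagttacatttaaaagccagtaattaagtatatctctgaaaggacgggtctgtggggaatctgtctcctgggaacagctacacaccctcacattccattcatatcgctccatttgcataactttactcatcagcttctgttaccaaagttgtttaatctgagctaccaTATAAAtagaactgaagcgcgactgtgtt
The upstream window held 1 STAT6 match at -36 to -27 from the start and a TATAAA at -203 to -198. The downstream window held a TATAAA at -29 to -24. Among 32851 RefSeq promoter windows of the same 250 bases, 5.85% held the STAT6 letters and 12.4% held TATAAA. Gene-level counts do not separate the 2 starts.

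Tslp encodes thymic stromal lymphopoietin, an alarmin made mainly by epithelium and stroma. Its counts were 0, 0 and 6 in the KLRG1-positive libraries against 10, 1 and 2 in the KLRG1-negative libraries (chromosome 18, 32815383 to 32819799, plus strand). The groups overlapped, and the highest value of all, 0.556 CPM, was in KLRG1-negative library 1. The ratio of KLRG1-negative to KLRG1-positive levels was 1.99 with a counting interval of 0.707 to 6.39, so no difference was detectable at this depth. In a fit without the filter on low counts its adjusted p was 0.805.

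Ccl11, Ccl7, Ccl2 and Ccl8 are neighbours in a cluster of CC chemokine genes on chromosome 11. Ccl11 encodes eotaxin-1, the main attractant of eosinophils through CCR3. It stood at 0.169, 0 and 0.0444 CPM across the KLRG1-positive libraries, against 43.6, 59.8 and 110.2 CPM in the KLRG1-negative libraries (ENSMUSG00000020676, chromosome 11, 82057823 to 82062955, plus strand). These KLRG1-positive values are 3, 0 and 1 counts, and the groups are separated in every library. The fold change on the log2 scale was -9.90 ± 0.92 (SE, n = 3 per group; edgeR adjusted p = 0.0196). The pooled level was 1056-fold lower in KLRG1-positive cells, with a counting interval of 412 to 3878. With the replicate block the adjusted p was 0.0549, above the threshold. It was also above the threshold without KLRG1-positive library 2 or 3 (0.106 and 0.104) and without KLRG1-negative library 2 or 3 (0.0698 and 0.0723), with log2 fold changes of -9.35 to -9.87 in those 4 fits.

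Ccl7 encodes MCP-3, a ligand of CCR1, CCR2 and CCR3. It stood at 0, 0.534 and 0 CPM across the KLRG1-positive libraries, against 10.4, 13.2 and 25.6 CPM in the KLRG1-negative libraries (log2 fold change -6.50 ± 1.56 SE, edgeR adjusted p = 0.103). All 10 KLRG1-positive counts were in library 2. Ccl2 encodes MCP-1, the main ligand of CCR2 on monocytes, and CCR2 is also found on ILC2. It stood at 0, 0 and 0.577 CPM across the KLRG1-positive libraries, against 5.67, 5.72 and 11.4 CPM in the KLRG1-negative libraries (-5.21 ± 1.60 SE, edgeR adjusted p = 0.182). Its 13 KLRG1-positive counts were all in library 3. Each of these 2 genes was thus at 0 in 2 KLRG1-positive libraries, and not in the same 2.

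Ccl8 encodes MCP-2, which in the mouse signals through CCR8. It stood at 0.113, 0.427 and 0 CPM across the KLRG1-positive libraries, against 1.06, 3.19 and 13.6 CPM in the KLRG1-negative libraries (-5.02 ± 1.61 SE, edgeR adjusted p = 0.197). The groups did not overlap, and the KLRG1-negative libraries themselves differed 12.8-fold. Without KLRG1-negative library 3 the log2 fold change of Ccl8 was -3.53 (adjusted p = 0.385), and without both libraries numbered 3 it was -2.87 (adjusted p = 0.611). Pooled levels in KLRG1-positive cells were 97.0-fold lower for Ccl7 (counting interval 52.5 to 203), 34.2-fold lower for Ccl2 (19.8 to 64.8) and 35.1-fold lower for Ccl8 (18.9 to 73.9). DESeq2 called all 3 lower, with adjusted p of 4.53e-05 for Ccl7, 0.00459 for Ccl2 and 0.00701 for Ccl8.

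Between and beside these members lie 2 other chemokine genes. Ccl12, 66.3 kb from the left end of Ccl2 and between Ccl11 and Ccl8, had 0 counts in all 6 libraries. Ccl1, the last gene of the cluster and a CCR8 ligand made by activated lymphocytes, stood at 13.6, 17.2 and 8.80 TPM (a level scaled for gene length and library) in KLRG1-positive libraries, against 0.911, 9.24 and 2.57 TPM in KLRG1-negative libraries. On the same per-length scale Ccl11 stood at 0.499, 0 and 0.116 TPM in KLRG1-positive libraries, against 112, 176 and 269 TPM in KLRG1-negative libraries. The groups overlapped in TPM but not in CPM, where Ccl1 stood at 10.1, 13.4 and 7.37 CPM over KLRG1-positive libraries, against 0.779, 6.86 and 2.31 CPM over KLRG1-negative libraries; Ccl1 did not pass the test (edgeR adjusted p = 0.428).

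**Figure D2:**
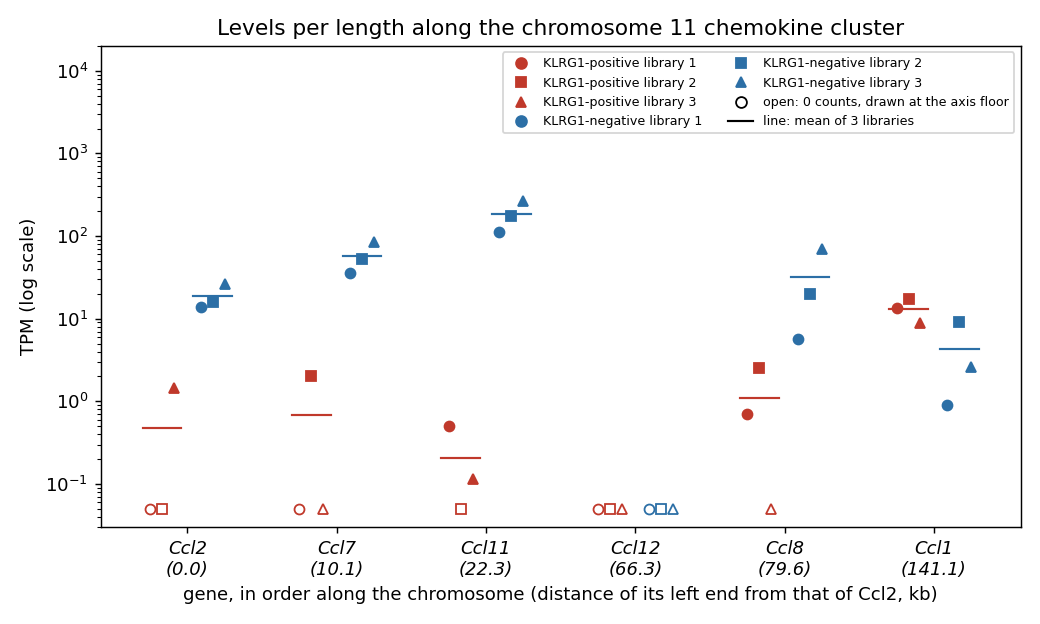
TPM on a log axis for the 6 genes of the chromosome 11 chemokine cluster in genomic order, with KLRG1-positive libraries in red on the left and KLRG1-negative libraries in blue on the right. Ccl2, Ccl7, Ccl11 and Ccl8 stand lower in every KLRG1-positive library, Ccl12 is at 0 throughout and Ccl1 has its highest value in a KLRG1-positive library.

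The windows before the RefSeq starts of Ccl8 and of its neighbour Ccl12 are shown to set a factor that was detected beside one with 0 counts. They span chr11:82114935-82115184 and chr11:82101595-82101844 on the plus strand of GRCm38.p6, with TATAAA in capitals.
Ccl8: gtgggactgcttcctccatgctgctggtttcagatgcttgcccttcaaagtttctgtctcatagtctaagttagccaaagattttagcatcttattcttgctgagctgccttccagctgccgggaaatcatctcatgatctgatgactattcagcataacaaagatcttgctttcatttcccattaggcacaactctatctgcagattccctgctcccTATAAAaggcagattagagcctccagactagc
Ccl12: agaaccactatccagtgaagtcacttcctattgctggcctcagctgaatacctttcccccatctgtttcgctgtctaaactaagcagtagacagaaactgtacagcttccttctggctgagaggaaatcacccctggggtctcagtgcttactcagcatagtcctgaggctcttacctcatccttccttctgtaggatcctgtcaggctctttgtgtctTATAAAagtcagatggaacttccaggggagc
Both held TATAAA at nearly the same place, at -32 to -27 in Ccl8 and at -31 to -26 in Ccl12. Neither held the letters searched for NF-kappaB (GGGA, any base, TTTCC), STAT6 or AP-1 (TGANTCA), on either strand.

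Cxcl12 encodes SDF-1, the stromal ligand of CXCR4. It stood at 5.41, 3.69 and 0.178 CPM across the KLRG1-positive libraries, against 53.2, 42.9 and 126 CPM in the KLRG1-negative libraries (ENSMUSG00000061353, chromosome 6, 117168535 to 117181367, plus strand). The groups did not overlap, and KLRG1-positive library 3 lay well under the other two. The fold change on the log2 scale was -4.58 ± 1.15 (SE, n = 3 per group; edgeR adjusted p = 0.115), and the pooled level was 25.4-fold lower in KLRG1-positive cells (counting interval 21.7 to 29.7). DESeq2 gave an adjusted p of 0.000101.

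Ccl19 encodes a CCR7 ligand of lymphoid stroma. It had 0, 0 and 1 counts in the KLRG1-positive libraries and 2, 31 and 6 in the KLRG1-negative libraries, a ratio of KLRG1-negative to KLRG1-positive levels of 35.9 with a counting interval of 6.07 to 1453. KLRG1-negative library 2 thus held most of the counts. In a fit without the filter its adjusted p was 0.363. Of the 914 distinct windows of 50 bases in its transcripts, 52.0% also occurred in transcripts of other genes, among them Ccl19-ps1 and Ccl19-ps3. The authors left out reads with several matches, and its level is therefore uncertain. The other 9 factors shared 0 such windows with any other annotated gene.

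Csf1 encodes M-CSF, the survival factor of macrophages. It stood at 56.1, 28.4 and 16.8 CPM across the KLRG1-positive libraries, against 47.3, 80.2 and 85.2 CPM in the KLRG1-negative libraries (ENSMUSG00000014599, chromosome 3, 107741048 to 107760469, minus strand). KLRG1-positive library 1 lay above the lowest KLRG1-negative library, so the groups overlapped. The fold change on the log2 scale was -1.07 ± 0.49 (SE, n = 3 per group; edgeR adjusted p = 0.371). Csf1 was the factor with the most counts in KLRG1-positive cells, 1906 in all. It made up 71.9, 69.7 and 66.5% of the summed TPM of the 10 factors in the KLRG1-positive libraries, against 9.76, 10.6 and 6.50% in the KLRG1-negative libraries, where Ccl11 made up 43.8, 38.7 and 41.0%.

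The window before the Csf1 start is shown because Csf1 had the highest level of the 10 factors in KLRG1-positive cells. Capitals mark the letters searched for NF-kappaB, at -154 to -145, which no other window of a factor held. It spans chr3:107760470-107760719 on the minus strand of GRCm38.p6.
Csf1: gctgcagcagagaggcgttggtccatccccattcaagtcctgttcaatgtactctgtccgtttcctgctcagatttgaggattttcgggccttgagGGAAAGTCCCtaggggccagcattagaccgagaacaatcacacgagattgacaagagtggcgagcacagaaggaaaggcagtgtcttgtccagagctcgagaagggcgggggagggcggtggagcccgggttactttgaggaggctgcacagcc
These letters occurred in 0.356% of the 32851 windows. Windows were found for 6 of the 10 factors (Il33, Cxcl12, Ccl8, Ccl19, Csf1 and Kitl). Kitl held a TATAAA at -25 to -20, and Cxcl12 and Ccl19 held none of the 4 motifs.

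Kitl encodes stem cell factor, the ligand of KIT on mast cells and progenitors. It stood at 11.5, 2.03 and 4.31 CPM across the KLRG1-positive libraries, against 13.5, 14.7 and 2.98 CPM in the KLRG1-negative libraries (chromosome 10, 100015630 to 100100416, plus strand). The groups overlapped, and the lowest KLRG1-negative value lay under 2 of the KLRG1-positive values. The fold change on the log2 scale was -0.81 ± 0.86 (SE; edgeR adjusted p = 0.761), and it turned to 0.02 without both libraries numbered 2.

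Per length, the order of the factors differed between the groups. In KLRG1-positive cells the order of mean TPM was Csf1 (19.8 ± 12.8, SD, n = 3), Kitl (3.11 ± 2.74), Il33 (1.30 ± 2.11), Cxcl12 (1.18 ± 1.04), Ccl8 (1.09 ± 1.32), Ccl7, Ccl2, Tslp, Ccl11 and Ccl19, with Ccl7 and the factors after it under 0.7 TPM on average. The range of Csf1 lay above that of Kitl, and the ranges of all later neighbours overlapped; within a library, Csf1 above Kitl and Kitl above Il33 held in all 3 KLRG1-positive libraries, as 2 of 9 neighbouring pairs. In KLRG1-negative cells the order was Ccl11 (186 ± 79.1 TPM), Il33 (90.1 ± 46.5), Ccl7 (57.6 ± 24.7), Csf1 (38.6 ± 12.3), Ccl8 (31.9 ± 33.8), Cxcl12 (25.1 ± 13.4), Ccl2 (18.8 ± 6.74), Kitl (5.19 ± 3.44), Ccl19 (1.91 ± 2.26) and Tslp (0.565 ± 0.691). Over the group the ranges of neighbours in this order overlapped, except those of Ccl2 and Kitl. Within a library, 6 of the 9 neighbouring pairs kept this order in all 3 KLRG1-negative libraries, and the exceptions were Csf1 and Ccl8, Ccl8 and Cxcl12, and Ccl19 and Tslp.

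Fibroblast markers differed between the sorts in the same direction as Ccl11. Of the 18 fibroblast markers, all tested, 10 fell in KLRG1-positive cells, 8 did not pass and 0 rose (1.21% of all genes fell and 0.125% rose), with a median log2 fold change of -7.07 beside -0.05 over all genes; with the replicate block 3 were lower, where 0.349% of all genes were, and the number was 0 when library 3 of the KLRG1-negative sort, or library 2 or 3 of the KLRG1-positive sort, was left out, and 3 when library 2 of the KLRG1-negative sort was. Scara5, a scavenger receptor of adventitial fibroblasts, stood at 0.0444 to 0.113 CPM among KLRG1-positive and at 68.2 to 142 CPM in KLRG1-negative libraries (edgeR adjusted p = 0.0102). Lum, which encodes lumican, had 1 count over the KLRG1-positive libraries and stood at 77.3 to 234 CPM in the KLRG1-negative libraries (adjusted p = 0.0124). The filter on low counts admitted many of the 18 markers, Lum and Scara5 among them, through their KLRG1-negative values alone. The calls and the median of this list are therefore descriptions. No fibroblast marker was at 0 counts in all 3 KLRG1-positive libraries. Most of the summed level there came from Npnt, at 121 to 163 CPM, and from Fn1, at 16.1 to 107 CPM; both were named after their values were seen, and Npnt was itself at 21.7 to 64.1 CPM in KLRG1-negative libraries (adjusted p = 0.0916).

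The 6 mesothelial markers, genes of the cells that line the pleura, summed to 7.46 to 19.3 CPM among KLRG1-positive and to 162 to 1121 CPM in KLRG1-negative libraries, and 0 passed the test (edgeR; at an unadjusted p under 0.05 all 6 were lower, beside 11.5% of all genes; the adjusted p of Upk3b and Msln was 0.0588 and 0.0818). The 7 mural cell markers summed to 0.755 to 6.42 CPM against 22.8 to 38.6 CPM; Des and Acta2 lay lower in every KLRG1-positive library, 3 of the 7 were tested and 0 passed. Endothelial and lymphatic markers overlapped between the groups, with sums of 96.6 to 328 CPM among KLRG1-positive and 163 to 542 CPM in KLRG1-negative libraries (0 of 10 tested passed). Among these, Pecam1 ranged from 95.4 to 146 CPM against 97.5 to 247 CPM, and Kdr from 0.0444 to 39.4 CPM against 6.82 to 79.7 CPM. The sum of the epithelial markers was high in both libraries numbered 1, as given above (0 of 9 tested passed). Sftpc stood at 329.8 CPM in KLRG1-positive library 1 and 366 CPM in KLRG1-negative library 1, and Sftpa1 at 129.8 and 134 CPM. Epcam and Krt18 went the other way in both groups. Epcam stood at 0.338, 8.12 and 9.01 CPM in KLRG1-positive libraries 1, 2 and 3, and at 3.84, 5.05 and 7.78 CPM in KLRG1-negative libraries 1, 2 and 3. Nkx2-1 was at 0 in every library. The part of these cells in the levels of the niche factors was not tested.

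**Figure D3:**
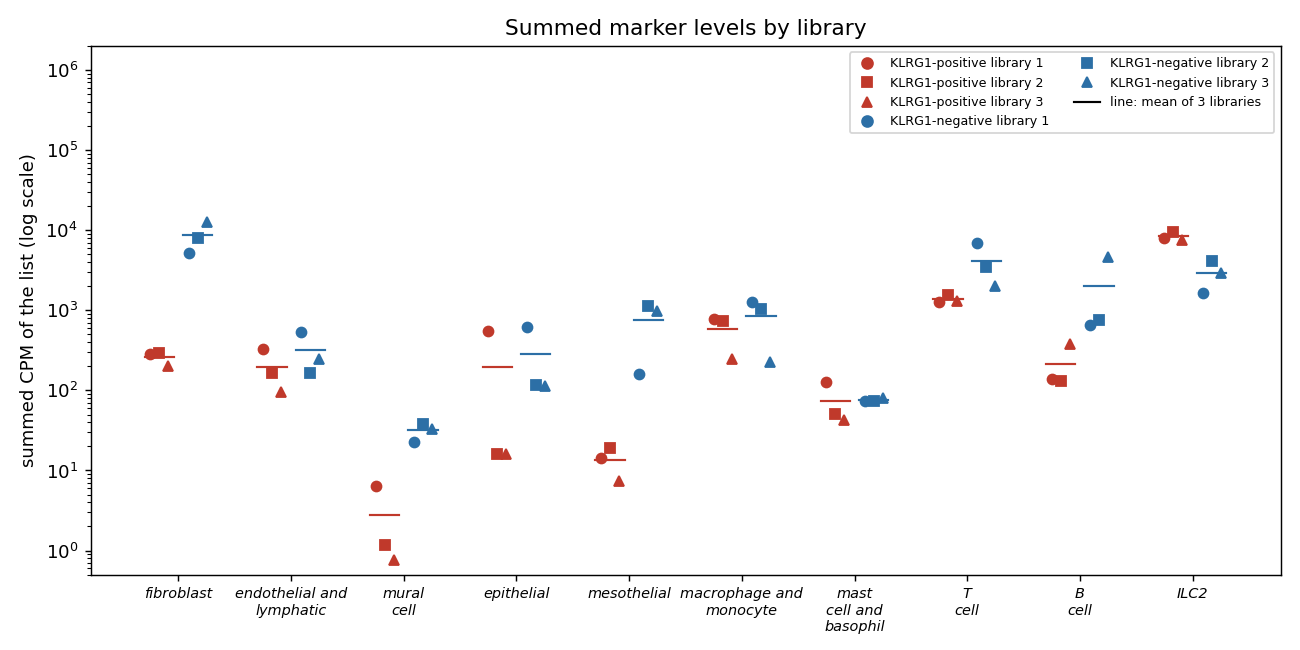
Summed CPM of each marker list on a log axis, with 1 point per library, KLRG1-positive in red on the left and KLRG1-negative in blue on the right, and lines at the means. In every KLRG1-positive library fibroblast, mesothelial and mural cell sums are lower and ILC2 sums are higher than in any KLRG1-negative library, and epithelial sums are high in the libraries numbered 1 of both groups. The ILC2 list includes Klrg1, the basis of the sort.

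Set against the fibroblast markers within each KLRG1-negative library, the factors varied from 1.15-fold to 21.4-fold between libraries. Ccl11 stood at 8.28, 7.49 and 8.63 CPM per 1000 CPM of summed fibroblast markers in KLRG1-negative libraries 1, 2 and 3, a range of 1.15-fold, while its own level differed 2.53-fold between them. Ccl7 stood at 1.98, 1.65 and 2.01 on the same scale. Csf1, which was also present in KLRG1-positive cells, varied 1.502-fold and Ccl2 1.51-fold. Il33, at 7.23, 12.9 and 10.3, and Cxcl12, at 10.1, 5.36 and 9.85, varied 1.78- and 1.88-fold. Ccl8 varied 5.28-fold, Ccl19 7.23-fold, Kitl 10.96-fold and Tslp, at 1 to 10 counts per library, 21.4-fold. These are descriptions of 3 libraries, in which numerator and denominator share a library's depth.

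The neighbours Ccl11, Ccl7 and Ccl2 also kept close ratios to each other. Per length, Ccl11 was 3.10, 3.36 and 3.18 times Ccl7 in KLRG1-negative libraries 1, 2 and 3, and Ccl7 was 2.61, 3.27 and 3.19 times Ccl2. Ccl8, from the same cluster, was 0.0514, 0.113 and 0.26 times Ccl11, so it did not keep such a ratio. Ratios of gene pairs outside the factors were not examined, and a part of the shared cluster in these ratios was not tested.

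**Figure D4:**
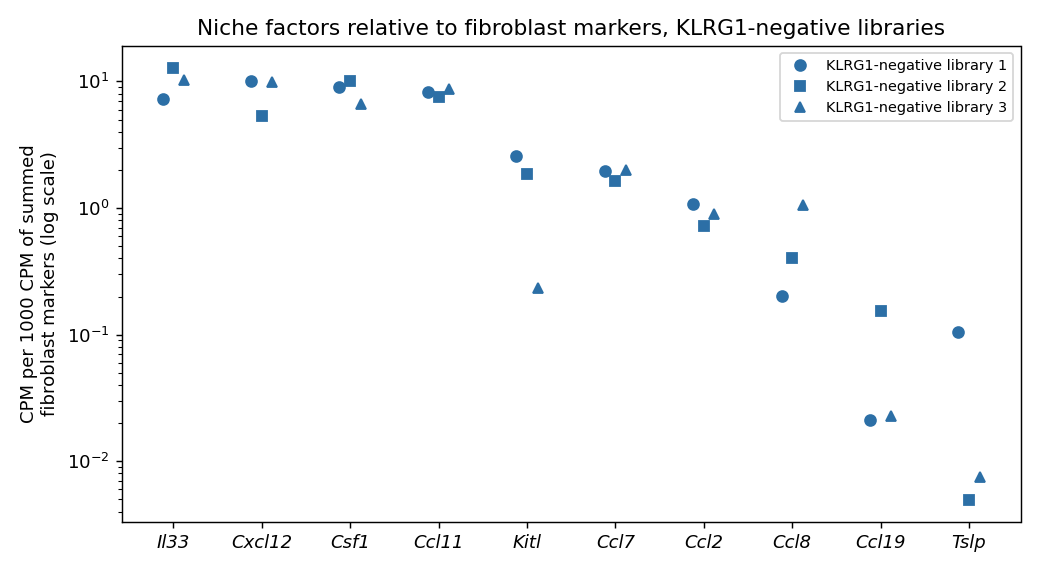
Level of each niche factor in the 3 KLRG1-negative libraries as CPM per 1000 CPM of summed fibroblast markers, on a log axis, with genes ordered by their highest value. The 3 points of Ccl11 and of Ccl7 lie nearly together, whereas those of Kitl, Ccl19, Ccl8 and Tslp are spread.

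The genes whose profiles over the 6 libraries were most like those of 3 factors were taken by the root mean square difference between log2 CPM profiles, each centred on its own mean, among 12624 tested protein-coding genes. For Il33 they were Bgn, Fbln5 and Ddr2, at 0.25, 0.27 and 0.29 log2 units. Bgn, the matrix proteoglycan biglycan, stood at 2.42, 0.107 and 0.0888 CPM among KLRG1-positive and at 40.3, 106 and 130 CPM in KLRG1-negative libraries. Its likeness to Il33, also in KLRG1-positive library 1, follows from its selection by profile. For Ccl11 they were Cd248, Sulf1 and Aldh1a3, at 0.39, 0.39 and 0.47 log2 units. Cd248, the stromal surface protein endosialin, had 0.169, 0 and 0.0888 CPM among KLRG1-positive and 85.9, 114 and 152 CPM in KLRG1-negative libraries. For Cxcl12 they were Ccn2, Pmp22 and Abat, at 0.39, 0.41 and 0.45 log2 units.

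Among the receptors of these factors, 9 had positive and 4 had negative log2 fold changes. Of the 13 receptors, all tested, Ccr2 and Ccr1 were higher in KLRG1-positive cells, Ccr7 was lower and 10 did not pass (of all tested genes, 0.125% were higher and 1.21% lower), with a median log2 fold change of 0.56. Ccr2, the receptor of CCL2 and CCL7, stood at 1353, 1024 and 1018 CPM in KLRG1-positive libraries, against 281, 274 and 371 CPM in KLRG1-negative libraries (1.87 ± 0.21 SE, edgeR adjusted p = 0.0272). Ccr1, a receptor of CCL7, stood at 56.0, 52.3 and 63.5 CPM against 17.4, 9.90 and 12.8 CPM in KLRG1-negative libraries (2.10 ± 0.29 SE, edgeR adjusted p = 0.041). Ccr7, the receptor of CCL19 on naive and central memory lymphocytes, stood at 26.2, 24.4 and 55.5 CPM in KLRG1-positive libraries, against 840.3, 367 and 325 CPM in KLRG1-negative libraries (-3.85 ± 0.55 SE, edgeR adjusted p = 0.043). With the replicate block none of the 3 passed (adjusted p = 0.068, 0.0686 and 0.0913), and in the 9 fits that left libraries out 1 call of these 3 genes remained, that of Ccr2 without KLRG1-positive library 1 (0.0426).

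**Figure D5:**
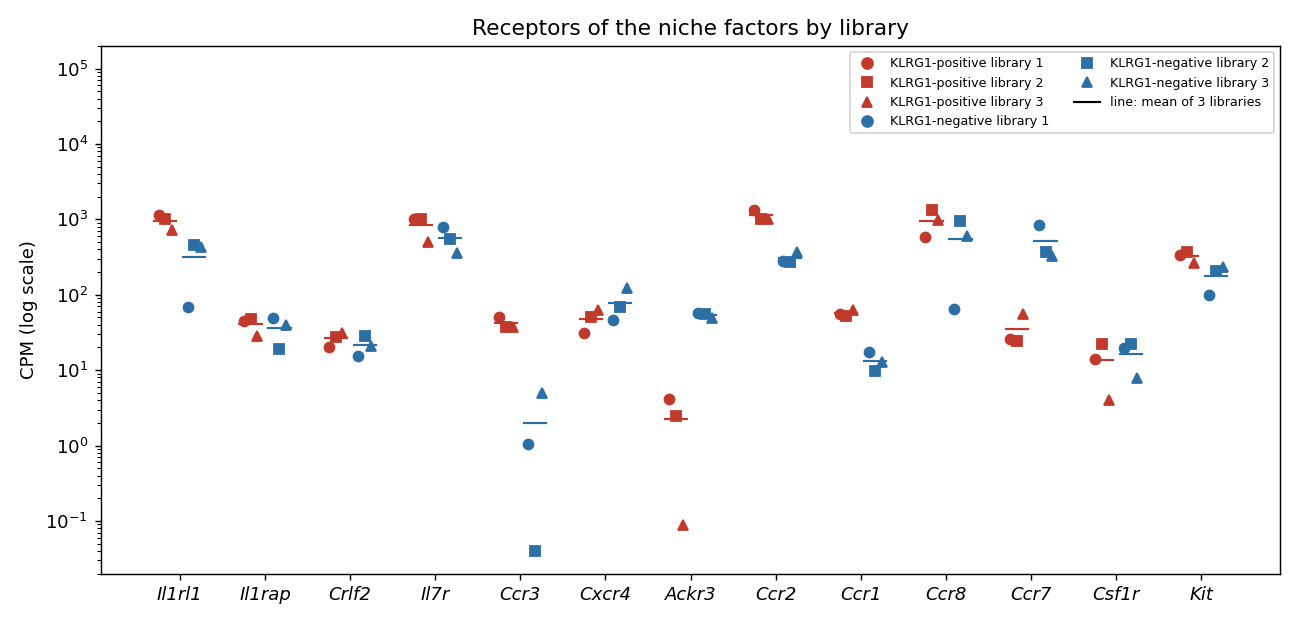
CPM of the 13 receptors on a log axis, with 1 point per library, KLRG1-positive in red on the left and KLRG1-negative in blue on the right of each gene, and lines at the means. Ccr2, Ccr1, Ccr3, Il1rl1 and Kit lie higher in every KLRG1-positive library, and Ackr3 and Ccr7 lie lower.

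Ccr3, the receptor of CCL11, stood at 50.4, 37.7 and 37.4 CPM in KLRG1-positive libraries, against 1.06, 0.0394 and 4.95 CPM in KLRG1-negative libraries. The groups did not overlap, and the log2 fold change of 4.38 ± 1.32 (SE) did not pass (edgeR adjusted p = 0.175; DESeq2 adjusted p = 0.00203). CCL11 and its receptor gene thus had their higher values in opposite sorts. Ackr3, the scavenger receptor of CXCL12, which fibroblasts and endothelium carry, stood at 4.11, 2.46 and 0.0888 CPM in KLRG1-positive libraries, against 56.6, 54.8 and 49.4 CPM in KLRG1-negative libraries (-4.60 ± 1.12 SE, edgeR adjusted p = 0.106). Cxcr4, the signalling receptor of CXCL12, overlapped, at 31.2, 51.5 and 62.4 CPM against 46.2, 68.3 and 122 CPM in KLRG1-negative libraries (adjusted p = 0.536).

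The gene of ST2, the receptor chain that binds interleukin-33, is Il1rl1, and it stood at 1127, 1026 and 723 CPM in KLRG1-positive libraries, against 69.8, 451 and 434 CPM in KLRG1-negative libraries (1.59 ± 0.67 SE, edgeR adjusted p = 0.324). Its partner chain Il1rap overlapped, at 28.4 to 47.6 CPM among KLRG1-positive and 19.2 to 49.8 CPM in KLRG1-negative libraries (adjusted p = 0.925). The chains of the TSLP receptor, Crlf2 and Il7r, overlapped as well, Crlf2 at 20.6 to 31.5 CPM against 15.4 to 28.4 CPM (adjusted p = 0.775) and Il7r at 507 to 1015 CPM against 357 to 803 CPM (adjusted p = 0.598). Kit, the receptor of stem cell factor, lay at 261 to 370.4 CPM among KLRG1-positive and 101 to 231 CPM in KLRG1-negative libraries (adjusted p = 0.304). Ccr8, the receptor of CCL8 and CCL1, ranged from 583 to 1331 CPM against 65.5 to 961 CPM (adjusted p = 0.756), and Csf1r, the M-CSF receptor of macrophages, from 4.00 to 22.3 CPM against 7.88 to 22.0 CPM (adjusted p = 0.913). T cell and B cell markers were summed at 1269 to 1559 and 133 to 378 CPM in KLRG1-positive libraries, against 2026 to 6958 and 658 to 4655 CPM in KLRG1-negative libraries; Ccr7 is carried by both cell types, and their part in its difference was not tested. Of these lists 0 of 9 tested T cell markers and 1 of 8 B cell markers passed, Blk, which was lower in KLRG1-positive cells (adjusted p = 0.0365). At an unadjusted p under 0.05, 6 of the 9 T cell markers (median log2 fold change -4.30) and 8 of the 8 B cell markers (median -3.62) were lower, beside 11.5% of all genes, and the same numbers lay lower in every KLRG1-positive library. The most abundant T cell markers, whose groups overlapped, Trbc2 and Trbc1, averaged 668 and 353 CPM among KLRG1-positive and 953 and 405 CPM in KLRG1-negative libraries.

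Other cytokines and growth factors of the tissue niche gave a mixed picture. Of 23 listed, 17 were tested, 1 fell in KLRG1-positive cells, 16 did not pass and 0 rose (median log2 fold change -1.46). Of all tested genes, 1.21% fell and 0.125% rose. At an unadjusted p under 0.05 by edgeR, 0 were higher and 6 were lower, beside 4.19% and 11.5% of all genes. The 1 that passed was Fgf10, a mesenchymal growth factor for lung epithelium. It had 0 counts in KLRG1-positive libraries and 4.90, 6.15 and 7.74 CPM in KLRG1-negative libraries (edgeR adjusted p = 0.043). Against a floor of 3 counts over the group it was 124-fold lower, and the lower end of its counting interval was 101-fold. Il25, the third alarmin that acts on ILC2, had 0 counts in all 6 libraries, for which the limit of 3 counts over a group corresponds to 0.0508 CPM for KLRG1-positive and to 0.0468 CPM for KLRG1-negative cells. Of 30 other chemokines, 22 were tested and 0 passed (edgeR; at an unadjusted p under 0.05, 1 was higher and 7 were lower, beside 4.19% and 11.5% of all genes; median log2 fold change -0.74). The most abundant were Ccl5, at 198, 69.1 and 73.9 CPM in KLRG1-positive against 474, 456 and 187 CPM in KLRG1-negative libraries, and the neutrophil attractant Cxcl3, at 120.1, 152 and 218 CPM against 1.17, 27.1 and 32.0 CPM.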

How the data were processed

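RNA of 6 libraries, 3 per sort, was sequenced after SMARTer low-input amplification and Nextera XT tagging, per the labels' protocols. The values deposited are whole read counts for each gene, not normalized, which the authors obtained with featureCounts (Subread 1.5.2) on Ensembl 90 models of GRCm38 without strand, counting no read with several matches, per the file headers. STAR 2.4.1d and bcl2fastq are named in the submitters' processing notes. Multi-mapping alignments made up 26.3 to 32.3% of a library in the deposited summary of alignment counts. Gene lengths in the deposited table served only for TPM, which was computed here from the counts.

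Symbols came from GENCODE M21 on the same build, which names 52489 of the 52636 genes. Differences were tested with edgeR 4.0.16 (quasi-likelihood F test, robust dispersion, TMM, filterByExpr, 15197 genes), two-sided, with Benjamini-Hochberg adjustment over all tested genes and a threshold of 0.05; positive log2 fold changes mean higher in KLRG1-positive cells. Standard errors were derived from the F statistic. An adjusted p without another name comes from this test. DESeq2 1.42.0, limma 3.58.1 (voom), other scalings and filters, the replicate block and left-out libraries were alternatives. The fits were tested on simulated data. Counting intervals are 95% exact conditional binomial; amplified reads are not independent molecules.

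The members and lists were chosen with earlier results of these data known. Named genes were all members and listed receptors, up to 2 called genes per direction of each other list or its 2 most abundant, and the 3 genes most like Il33, Ccl11 and Cxcl12. 1 further receptor is not reported here. Further genes were named after their values were seen. Across genes, libraries that carry the same number deviated together (correlations of 0.38, 0.34 and 0.19). Libraries of the 2 sorts with different numbers had correlations of -0.32 to 0.06. What a number marks is not given in the labels. The main test therefore had no term for it, and only the settings with the replicate block treated the numbers as pairs. Promoter sequences are from RefSeq (GRCm38.p6), cut to the 250 bases before each start.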

Additional observations from a re-analysis of the deposited data

How the results depend on the processing

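Of the 8 tested factors, all kept their direction in the 17 alternative settings, except Kitl, which reversed to 0.021 without both libraries numbered 2 (range -1.69 to 0.021 with libraries left out). Of the receptors, Csf1r reversed to 0.05 without KLRG1-negative library 2 and to 0.24 without KLRG1-positive library 3 (range -0.85 to 0.24), and Il1rap to -0.05 without KLRG1-negative library 2 and to -0.19 without both libraries numbered 2 (range -0.19 to 0.50). The cause was not tested.

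The number of factors lower in KLRG1-positive cells was 1 in the main test, 6 with DESeq2, 6 with DESeq2 and the replicate block, 0 with edgeR and the replicate block and 0 with limma voom (6, 7, 5 and 6 at an unadjusted p under 0.05). The number of factors lower ranged from 0 to 2 over the 9 fits that left libraries out (5 to 7 at an unadjusted p under 0.05). The number of factors higher was 0 in all of them, also at an unadjusted p under 0.05. At that threshold 1159 to 1779 of all genes were lower and 406 to 1048 higher in these fits. In the main test 11.5% of the 15197 tested genes were lower at that threshold. For DESeq2, limma voom and the replicate block this share is not given here, so their unadjusted counts are descriptions. The adjusted p of Ccl11 ranged from 1.32e-25 to 0.339 over the 17 settings and passed in 9 of them. The cause of these differences was not tested.

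Over all genes, 19 were higher and 184 lower in the main test, 346 and 1377 with DESeq2, 609 and 1697 with DESeq2 and the replicate block, 0 and 53 with edgeR and the replicate block, 0 and 3 with limma voom, and 37 and 282 without a filter on low counts. With libraries left out, 0 to 5 were higher and 0 to 168 lower (406 to 1048 and 1159 to 1779 at an unadjusted p under 0.05). For the receptors and the fibroblast markers the same settings were added after seeing the data. Receptors were 2 higher and 1 lower in the main test, 5 higher and 2 lower with DESeq2 and the replicate block, 3 higher and 2 lower with DESeq2, and 0 in each direction with edgeR and the replicate block or limma voom. With libraries left out they were 0 to 1 higher and 0 lower (1 to 2 lower at an unadjusted p under 0.05). Fibroblast markers were 10 lower, 3 with edgeR and the replicate block, 0 with limma voom (16 at an unadjusted p under 0.05) and 0 to 12 with libraries left out. FPKM in place of TPM cannot change the order of genes within a library and tests nothing there. Depth limits Tslp and Ccl19, which had at most 31 counts in any library, and every factor but Csf1, Kitl, Cxcl12 and Il33 in KLRG1-positive cells, where group totals were 1 to 13 counts. It also limits Il33 in KLRG1-positive libraries 2 and 3 (2 and 1 counts) and Cxcl12 in KLRG1-positive library 3 (4 counts).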

Other observations

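Macrophage and monocyte markers, the cells that respond to Csf1, overlapped between the sorts, with sums of 769, 735 and 248 CPM in KLRG1-positive libraries 1, 2 and 3, and of 1271, 1041 and 225 CPM in KLRG1-negative libraries 1, 2 and 3 (0 of 11 tested passed by edgeR). The libraries numbered 3 were the lowest in both sorts. Chil3, a chitinase-like protein of alveolar macrophages, stood at 418, 485 and 172 CPM in KLRG1-positive libraries, against 502, 719 and 54.3 CPM in KLRG1-negative libraries, and Ly6c2, a gene of classical monocytes and some T cells, at 54.7, 7.42 and 26.2 CPM against 399.5, 124 and 91.8 CPM (edgeR adjusted p = 0.193).

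Markers of basophils and of mast cells, the latter of which carry the receptor of Kitl, summed to 126, 51.2 and 43.1 CPM in KLRG1-positive libraries and to 74.7, 73.2 and 80.9 CPM in KLRG1-negative libraries (0 of 6 tested passed by edgeR). Mcpt4 had 0 counts in every library and Tpsb2 had 0 counts in KLRG1-positive libraries. Cpa3, carboxypeptidase A3, stood at 90.6, 34.1 and 29.7 CPM in KLRG1-positive libraries, against 12.5, 2.68 and 8.27 CPM in KLRG1-negative libraries, without passing (adjusted p = 0.13). Hdc, the histamine-forming enzyme, went the other way, at 10.8, 13.1 and 10.2 CPM in KLRG1-positive libraries, against 28.0, 48.2 and 63.2 CPM in KLRG1-negative libraries (adjusted p = 0.0599).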
